A study of Mus musculus with 20 samples.

Results

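Spermatocytes in diplotene, the stage of the first meiotic prophase in which homologous chromosomes desynapse and stay joined at crossovers, were compared between Cxxc1-null and WT adult mice on a C57BL/6 background. The genes described are the 10365 of 23235 in the deposited expression table that reached at least 1 FPKM (a fragment level normalised for transcript length and sequencing depth) in at least 2 of the 4 diplotene libraries. There were 2 WT and 2 Cxxc1-null diplotene libraries, each a pool of diplotene spermatocytes sorted by flow cytometry from adult testes and made into cDNA with Smart-seq2, a full-length method primed with oligo-dT. The series also holds 2 libraries per genotype of pachytene and of meiosis II cells, so 12 RNA libraries in 6 groups of 2 shared 1 estimate of the spread. The labels give the genotypes as WT and Cxxc1-null and do not say how or in which cells the gene was deleted, or whether replicate libraries come from different animals. P-values therefore reflect spread among libraries alone, and this may be technical.

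Cxxc1 encodes a zinc-finger protein that binds unmethylated CpG dinucleotides and is a subunit of the SETD1 complexes, which place trimethylation on lysine 4 of histone H3 (H3K4me3) at promoters. In male meiosis the X and Y chromosomes do not pair along their length and are silenced together in the sex body through pachytene and diplotene. X-linked genes are in part switched on again after the meiotic divisions. Diplotene cells also store many transcripts that are used later, in spermatids.

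Promoters are where a CpG-binding protein and H3K4me3 are best known to act, so the 300 bases around the start of 6 genes whose expression changed are printed here, with every CG dinucleotide in capitals. They are RefSeq sequences of the GRCm38.p6 build, running 250 bases before to 50 bases after the annotated start, 5′ to 3′ on the strand of the gene. Gchfr, Slco1a6 and Mira were among the genes with the largest rises in Cxxc1-null cells, and Zkscan17, Fmnl1 and Phf13 had the 3 largest falls.
Gchfr (chr2:119167538-119167837, plus strand): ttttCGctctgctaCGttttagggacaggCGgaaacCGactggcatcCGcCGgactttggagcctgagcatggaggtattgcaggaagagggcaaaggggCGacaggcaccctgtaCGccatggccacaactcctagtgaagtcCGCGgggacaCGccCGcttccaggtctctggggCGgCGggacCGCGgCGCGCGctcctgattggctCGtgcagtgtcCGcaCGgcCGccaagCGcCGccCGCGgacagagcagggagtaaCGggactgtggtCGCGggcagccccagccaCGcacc
Slco1a6 (chr6:142186100-142186399, minus strand): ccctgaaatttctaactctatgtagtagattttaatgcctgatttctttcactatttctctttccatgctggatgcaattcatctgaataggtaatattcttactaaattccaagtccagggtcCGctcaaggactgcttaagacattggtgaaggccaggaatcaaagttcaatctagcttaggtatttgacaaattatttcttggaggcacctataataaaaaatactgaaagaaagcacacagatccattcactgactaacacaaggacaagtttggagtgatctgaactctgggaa
Mira (chr6:52215239-52215538, minus strand): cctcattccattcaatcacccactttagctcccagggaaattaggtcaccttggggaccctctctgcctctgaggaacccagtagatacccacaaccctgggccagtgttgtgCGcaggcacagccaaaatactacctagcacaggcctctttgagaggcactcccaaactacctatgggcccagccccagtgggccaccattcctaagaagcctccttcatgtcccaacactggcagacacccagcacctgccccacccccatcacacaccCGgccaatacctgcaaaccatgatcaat
Zkscan17 (chr11:59506591-59506890, minus strand): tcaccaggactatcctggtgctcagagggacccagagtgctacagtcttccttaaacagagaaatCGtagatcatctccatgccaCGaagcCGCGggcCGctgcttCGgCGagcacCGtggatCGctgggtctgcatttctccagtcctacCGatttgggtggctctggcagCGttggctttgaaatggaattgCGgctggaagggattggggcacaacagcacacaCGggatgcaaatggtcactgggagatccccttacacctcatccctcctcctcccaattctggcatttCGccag
Fmnl1 (chr11:103170888-103171187, plus strand): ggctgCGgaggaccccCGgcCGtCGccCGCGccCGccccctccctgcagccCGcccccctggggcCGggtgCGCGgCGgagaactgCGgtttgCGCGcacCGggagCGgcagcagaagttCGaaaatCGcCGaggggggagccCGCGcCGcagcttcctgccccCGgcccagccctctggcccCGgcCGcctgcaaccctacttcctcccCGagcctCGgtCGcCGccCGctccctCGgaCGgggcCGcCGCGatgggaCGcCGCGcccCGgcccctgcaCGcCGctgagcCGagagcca
Phf13 (chr4:151996130-151996429, minus strand): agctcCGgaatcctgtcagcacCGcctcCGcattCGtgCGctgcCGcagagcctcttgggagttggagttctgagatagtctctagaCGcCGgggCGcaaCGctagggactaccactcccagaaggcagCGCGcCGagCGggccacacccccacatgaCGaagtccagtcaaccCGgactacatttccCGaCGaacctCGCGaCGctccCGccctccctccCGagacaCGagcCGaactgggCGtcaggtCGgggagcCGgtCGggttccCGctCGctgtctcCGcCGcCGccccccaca
The letters CG, whose reverse complement is again CG, occurred 31 times in the Gchfr window, 1 time in Slco1a6 and 2 times in Mira. The windows of Zkscan17, Fmnl1 and Phf13 held 14, 43 and 34. Of all 32841 RefSeq promoter windows of this length, 94.6% held at least 1 CG, with a median of 7 and quartiles of 3 and 20. Both the genes that rose and the genes that fell thus included CpG-rich windows, and this is a description of 6 chosen genes without a test.

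All 24 listed pachytene and diplotene marker genes were among the 10365. Their summed level was 17904 and 16329 FPKM in WT diplotene cells and 15636 and 14826 FPKM in WT meiosis II cells, so this list does not tell diplotene from the later stage. The libraries held 9838 to 10673 genes at 1 FPKM or more. Across genes the 2 WT libraries correlated at r = 0.976 and the 2 Cxxc1-null libraries at r = 0.970, against 0.955 to 0.974 between genotypes. Cxxc1-null replicate 2 stood apart. It had the most genes at 1 FPKM and correlated at r = 0.891 with the mean of the WT meiosis II libraries, where the other 3 diplotene libraries gave 0.834 to 0.849. In bulk samples, fewer cells of a type and less RNA per cell cannot be told apart.

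Cxxc1 itself was measured at 13.7 and 17.6 FPKM in the WT libraries and at 9.57 and 8.29 FPKM in the Cxxc1-null libraries. The groups did not overlap, with Cxxc1-null lower by a log2 difference of -0.74 ± 0.25 (SE), but the gene did not pass the test across all genes (limma adjusted p = 0.221). The deposited value covers the whole gene, and the sources used here do not name the deleted part. Among the other 7 measured SETD1 subunits none passed the test. Dpy30, a core subunit shared with the other H3K4 methyltransferases, had 69.5 and 73.9 FPKM in WT and 80.9 and 118 FPKM in Cxxc1-null cells (adjusted p = 0.606).

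Of the 10365 diplotene genes, 98 changed in Cxxc1-null cells at an adjusted p under 0.05, with 87 higher and 11 lower. Over all 12956 genes tested, 102 changed (0.787%), of which 91 (0.702%) were higher and 11 (0.0849%) lower. The 87 genes that rose went from a median of 0.667 FPKM in WT to 5.13 FPKM, and the 11 that fell went from 13.4 to 4.03 FPKM. Among the 87, both WT libraries were under 1 FPKM for 49, so these counted as diplotene genes only through their Cxxc1-null values. Of the genes with 1 FPKM in all 4 libraries, 34 rose and 8 fell.

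**Figure D1:**
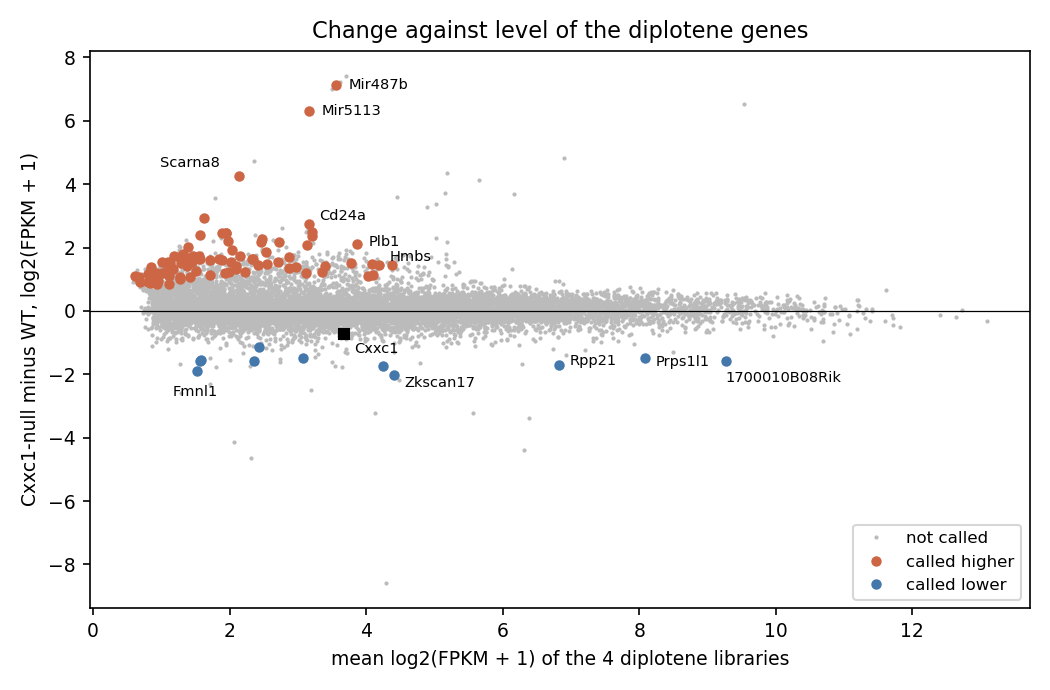
Each point is 1 of 10365 diplotene genes, with its mean log2(FPKM + 1) over the 4 libraries on the horizontal axis and its Cxxc1-null minus WT difference on the vertical axis. The 87 genes called higher lie mostly at low levels, the 11 called lower reach the highest levels of any called gene, and Cxxc1 (black square) lies at -0.74; the 21 uncalled points beyond 3 in either direction are short RNA genes and Rn45s.

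The number of calls rests on few libraries. Leaving out WT replicate 1 gave 4 and leaving out WT replicate 2 gave 6. Leaving out Cxxc1-null replicate 1 raised the number and leaving out Cxxc1-null replicate 2 lowered it. All 98 kept their direction in each of these 4 fits. This was fixed in advance, since the libraries of the 2 genotypes did not overlap for any of the 98. Slco1a6, Mir487b, Mir5113 and Scarna8 passed in all 4 of these fits and Hoxa7 in 3, the exception being the fit without WT replicate 1. With the fit limited to the 4 diplotene libraries, 4 genes were called. Higher genes made up 88.8% of the calls, and 72.1% after quantile normalization or 75.8% after scaling the libraries to a common median, which moved the median change of all tested genes from 0.09 to -0.04 on the log2 scale.

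The genes that fell had varied roles. Phf13, whose protein has a PHD finger that binds H3K4me3, had 28.3 and 39.7 FPKM in WT and 8.33 and 10.6 FPKM in Cxxc1-null libraries, a change of -1.73 ± 0.30 on the log2(FPKM + 1) scale (adjusted p = 0.0353). Zkscan17, a zinc-finger gene, had the largest fall, from 30.7 and 56.7 FPKM to 7.92 and 11.6 FPKM (-2.01 ± 0.38). In both genes the higher Cxxc1-null library stayed well below the lower WT library. Fmnl1, which encodes a formin that assembles actin filaments, went from 3.97 and 5.29 FPKM to 0.461 and 0.512 FPKM (-1.91 ± 0.34).

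Rpp21, a protein subunit of the tRNA-processing enzyme RNase P, had 169 and 246 FPKM in WT and 48.5 and 78.1 FPKM in Cxxc1-null cells (-1.71 ± 0.31, adjusted p = 0.038). It was the only subunit of the enzyme to pass. Rpp25 had 0.499 and 0.289 FPKM in WT and 2.31 and 2.89 FPKM in Cxxc1-null cells (adjusted p = 0.0512), and Rpp40 had 3.91 and 3.78 against 7.46 and 10.1 FPKM (adjusted p = 0.0996). Of 10 measured RNase P and MRP subunits, 1 fell and none rose by the test, where 0.0849% of all genes tested fell and 0.702% rose. The median difference was 0.24 against 0.08 over all diplotene genes. Rpp25 was under 1 FPKM in both WT libraries and counted only through its Cxxc1-null values. Without it the list median was 0.22.

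A pair of abundant testis transcripts fell together with low-level developmental regulators. 1700010B08Rik, an uncharacterised transcript, was at 1062 and 1066 FPKM in WT and at 367 and 344 FPKM in Cxxc1-null libraries (-1.58 ± 0.20). Prps1l1, a testis-expressed phosphoribosyl pyrophosphate synthetase, was at 505 and 402 FPKM in WT and at 169 and 154 FPKM in Cxxc1-null libraries (-1.47 ± 0.24). Replicates of these genes were close to each other beside the gap between genotypes. The homeobox gene Emx2 was at 8.06 and 7.75 FPKM against 2.09 and 1.88 FPKM, and the paired-box gene Pax9 at 4.84 and 3.57 against 0.778 and 0.652 FPKM. Anxa7, an annexin that binds membranes in the presence of calcium, was at 15.5 and 11.2 FPKM in WT and at 3.73 and 4.33 FPKM in Cxxc1-null cells. Pik3r6, a regulatory subunit of phosphoinositide 3-kinase, had the smallest change of the 11 (-1.14 ± 0.20).

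The largest rises among annotated protein-coding genes included cell-surface and transport genes. Cd24a, a small glycosylated surface protein, went from 3.0 and 2.01 FPKM in WT to 24.1 and 20.3 FPKM in Cxxc1-null libraries (2.74 ± 0.30, adjusted p = 0.00599). Steap1, a membrane protein of the metalloreductase family, went from 2.74 and 3.39 FPKM to 19.7 and 20.5 FPKM (2.38 ± 0.31). Slco1a6, an organic anion transporter, went from 0.876 and 0.356 FPKM to 8.0 and 7.35 FPKM (2.44 ± 0.22). In these 3 genes the lower Cxxc1-null library was above the higher WT library. The list of STEAP and SLCO genes held 5 further diplotene genes, none of which passed. Slco6c1, another member of that transporter family, had 266 and 142 FPKM in WT and 187 and 130 FPKM in Cxxc1-null cells.

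Enzymes and enzyme regulators formed another part of the genes that rose. Gchfr, the feedback regulator of GTP cyclohydrolase in tetrahydrobiopterin synthesis, was at 3.01 and 2.80 FPKM in WT and at 17.0 and 25.1 FPKM in Cxxc1-null cells (2.48 ± 0.27). Plb1, a phospholipase, rose from 7.36 and 4.87 FPKM to 25.4 and 33.4 FPKM. Galnt14, which starts mucin-type O-glycosylation, was at 3.27 FPKM in both WT libraries and at 16.6 and 17.9 FPKM in Cxxc1-null cells. Dhrs3, which reduces retinal, rose from 1.99 and 2.08 FPKM to 10.7 and 9.5 FPKM. Acbd7 (2.26), Fkbp10 (1.73), an endoplasmic reticulum prolyl isomerase, and Ppp1r14c (1.64), an inhibitor of protein phosphatase 1, also rose by these log2 differences.

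The other genes that rose had varied roles. Lor, loricrin of the cornified epidermis, had 0.0904 and 0.545 FPKM in WT and 4.93 and 3.66 FPKM in Cxxc1-null cells. Postn, the matrix protein periostin, rose from 3.64 and 2.57 FPKM to 12.9 and 11.4 FPKM. Gata6, a transcription factor of endoderm and of somatic gonad cells, rose from 0.476 and 0.442 FPKM to 2.95 and 4.54 FPKM. Defb41, a beta-defensin, rose from 2.42 and 3.24 FPKM to 9.94 and 10.3 FPKM. Tmem95, which encodes a sperm membrane protein needed for fertilisation, went from 0.435 and 0.606 FPKM to 3.83 and 4.30 FPKM. The uncharacterised transcript 2610016A17Rik had the largest rise among genes that passed and were not at 0 in both WT libraries, from 0 and 0.245 FPKM to 6.58 and 8.59 FPKM (2.93 ± 0.37), and the predicted genes Gm7334 and Gm5591 rose by 2.16 and 1.91. Susd3, Fez1, Cpne5, Lgi2 and Rbpms2 rose as well, by log2 differences of 2.2, 1.71, 1.60, 1.55 and 1.55.

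Over the 47 measured members of developmental transcription factor families, 2 rose (Hoxa7 and Gata6), 2 fell (Emx2 and Pax9) and the others did not pass. Of all genes tested, 0.702% rose and 0.0849% fell. Among the 47, 9 were under 1 FPKM in both WT libraries and counted only through their Cxxc1-null values. Hoxa7 and Gata6 were among these 9. Pax9 was the 1 member that counted only through its WT values. Of the 219 genes listed, 44 were at 0 in all 4 libraries. Itga6, an integrin subunit used as a spermatogonial marker, rose from 0.374 and 0.248 FPKM to 1.74 and 1.12 FPKM. It was the only one of 6 measured spermatogonial markers to pass, and it too counted only through its Cxxc1-null values. Id4, a marker of spermatogonial stem cells, had 55.8 and 42.5 FPKM in WT and 22.6 and 25 FPKM in Cxxc1-null cells (adjusted p = 0.099).

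**Figure D2:**
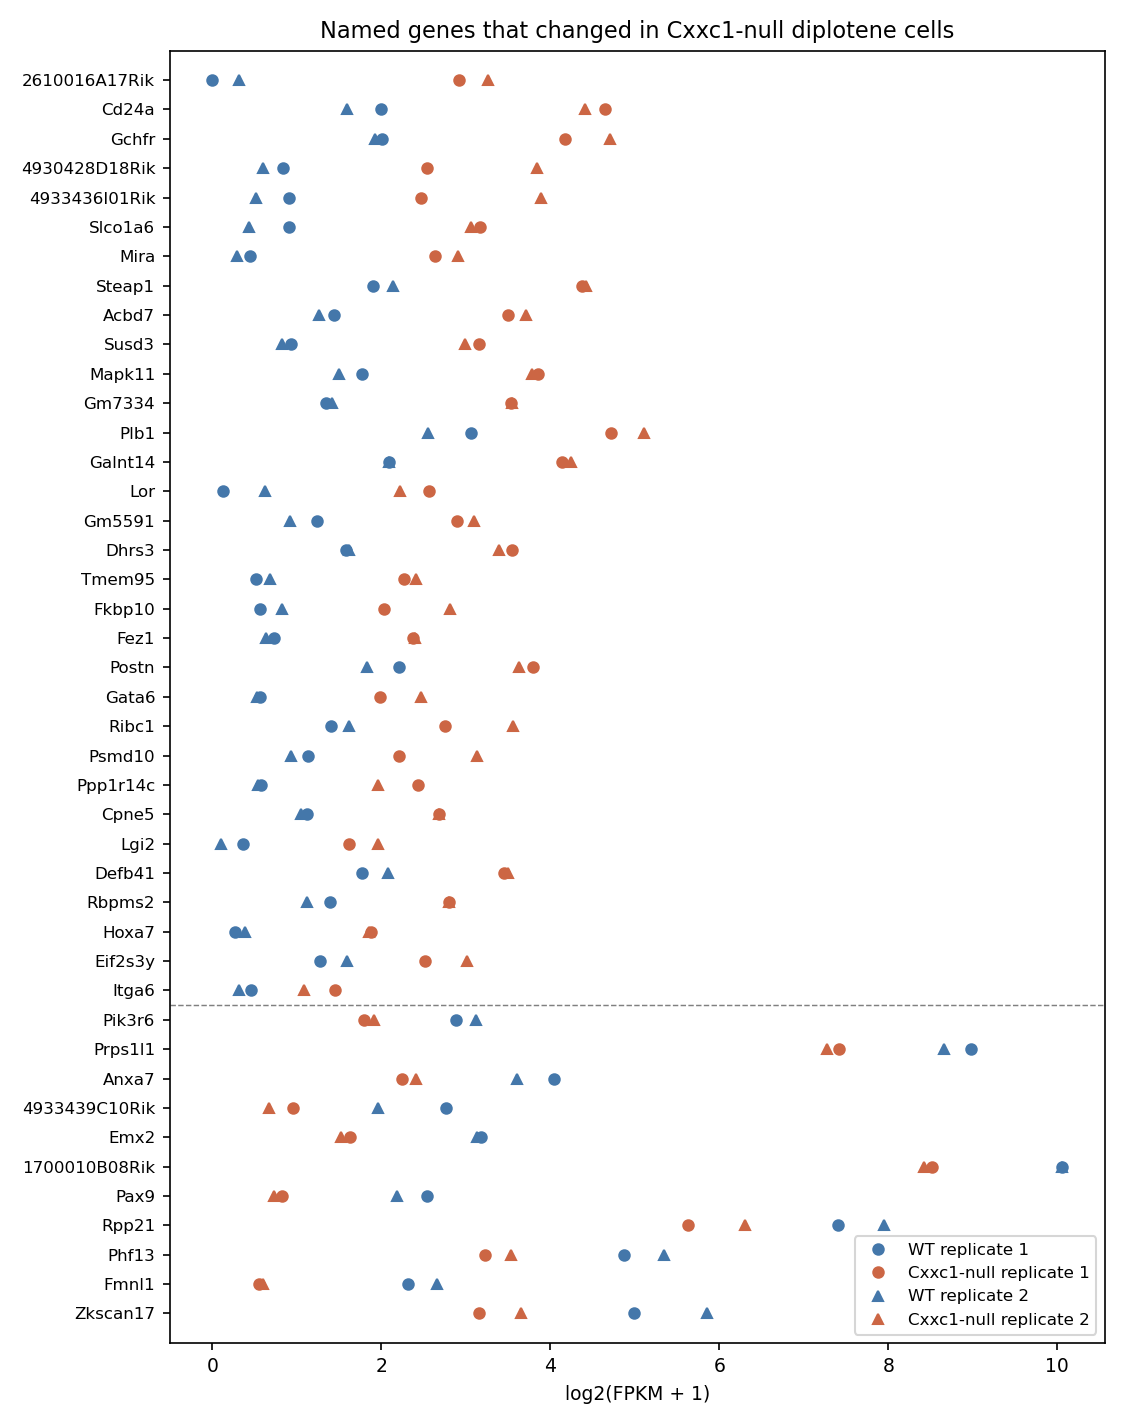
The log2(FPKM + 1) of 43 genes named by rule is shown in each of the 4 diplotene libraries, with circles for replicate 1 and triangles for replicate 2. Genes above the dashed line rose and the 11 below it fell; in every gene shown the 2 genotypes do not overlap.

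Some of the changed genes lie next to each other in the RefSeq gene order. Mira, a non-coding RNA of the Hoxa cluster on chromosome 6, rose from 0.359 and 0.222 FPKM to 5.21 and 6.51 FPKM (2.41 ± 0.27). Its neighbour Hoxa7 rose from 0.204 and 0.303 FPKM to 2.68 and 2.62 FPKM (1.54 ± 0.15, adjusted p = 0.0028). The most abundant gene of the cluster, Hoxa4, had 87.3 and 98.6 FPKM in WT and 59.8 and 63.9 FPKM in Cxxc1-null cells (-0.58 ± 0.30, adjusted p = 0.451), and Hoxa3 had 4.93 and 5.06 against 5.77 and 6.85 FPKM. Both genes that passed were thus near 0 in WT, while the 2 genes already transcribed there did not pass.

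On chromosome 15, Mapk11 and Mapk12, neighbouring genes for p38 kinases, both rose. Mapk11 went from 2.42 and 1.83 FPKM to 13.4 and 12.8 FPKM, and Mapk12 from 0.0844 and 0.274 FPKM to 1.09 and 1.38 FPKM. On chromosome 11, Zkscan17 and its neighbour 4933439C10Rik both fell, the latter from 5.79 and 2.88 FPKM to 0.945 and 0.588 FPKM. Snap47, with 2 genes between it and Zkscan17, rose from 6.58 and 4.49 FPKM to 16.5 and 15.9 FPKM. The labels give no strand information, so reads of overlapping or antisense neighbours cannot be told apart.

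X-linked genes were higher in Cxxc1-null diplotene cells. Of 407 X-linked genes tested, both Cxxc1-null libraries exceeded both WT libraries for 217 (53.3%), against 30.4% of all genes tested, and both were below for 14 (3.44%), against 15.2% of all genes tested. The 52 and 63 X-linked genes that reached 1 FPKM in the WT libraries compare with 110 and 187 in the Cxxc1-null libraries. Summed over the 407 genes, the level was 758 and 832 FPKM in WT and 968 and 2058 FPKM in Cxxc1-null replicates 1 and 2. WT meiosis II cells reached 5826 and 5646 FPKM.

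Among X-linked genes with a mean of at least 5 FPKM over the 12 libraries, the median log2 difference was 1.14 over 123 genes, against 0.08 over 7682 autosomal genes. It was 0.51 in Cxxc1-null replicate 1 and 1.81 in replicate 2. Of these 123 genes, 64 were under 1 FPKM in both WT diplotene libraries, against 174 of the 7682 autosomal genes. Over all 407 X-linked genes tested, many of them under 1 FPKM in diplotene, the median was 0.34, with 0.18 and 0.47 in the 2 libraries, against 0.08 over all autosomal genes tested. The direction was therefore the same in both libraries, but it was larger in the library that stood nearer to meiosis II, and the part of that library in the result was not tested. With 2 libraries against 2, an exact two-sided permutation test cannot give a p below 0.333, so no p is given. The 123 genes had a median difference of 1.18 in pachytene and 0.75 in meiosis II, which come from other libraries. Over all 407 genes these medians were 0.43 and 0.45. This comparison was chosen after the data had been seen.

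**Figure D3:**
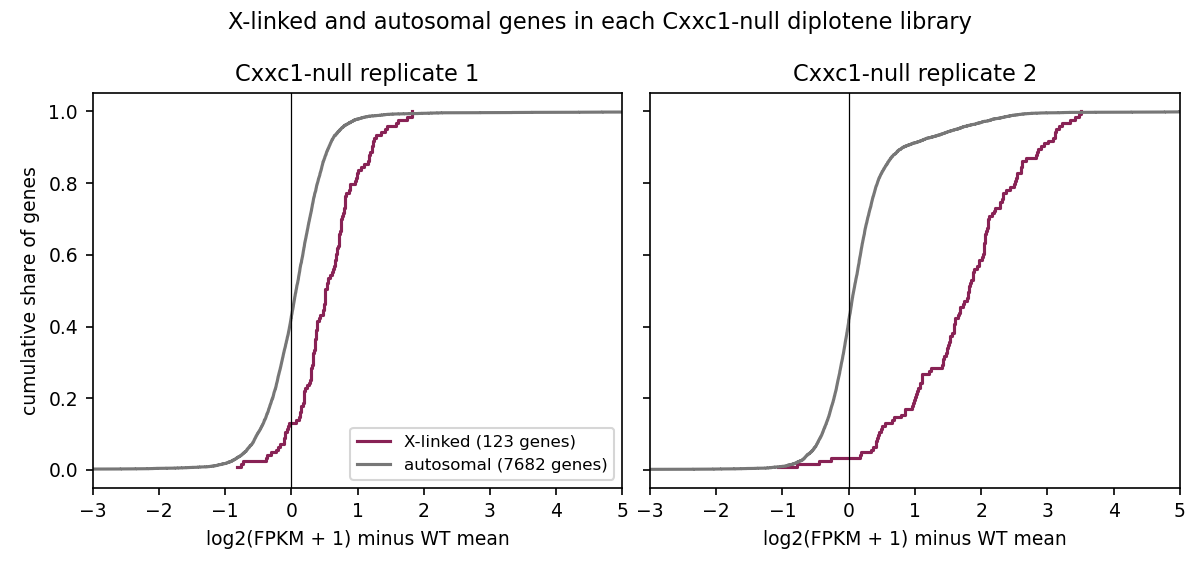
Cumulative shares of X-linked (123) and autosomal (7682) genes with a mean of at least 5 FPKM are drawn against their log2(FPKM + 1) minus the WT mean, in Cxxc1-null replicate 1 (left) and replicate 2 (right). The X-linked curve lies to the right of the autosomal curve in both libraries, with medians of 0.51 and 1.81 against 0.07 and 0.08. Of the 123 X-linked genes, 64 were under 1 FPKM in both WT diplotene libraries. Over all 407 X-linked genes tested the medians were 0.18 and 0.47.

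By the test across all genes, 6 of the 407 X-linked genes tested rose and none fell. Of all genes tested, 0.702% rose and 0.0849% fell. Psmd10, a chaperone of proteasome assembly, went from 1.19 and 0.903 FPKM to 3.63 and 7.80 FPKM (1.64 ± 0.31, adjusted p = 0.0432). Ribc1 went from 1.64 and 2.08 FPKM to 5.76 and 10.7 FPKM. 4930428D18Rik, which RefSeq names Cldn34b4, a claudin-family gene, and the uncharacterised gene 4933436I01Rik had differences of 2.47 and 2.46. For 4930550L24Rik and 3830403N18Rik they were 1.64 and 1.21. These last 4 genes were under 1 FPKM in both WT libraries, so they counted as diplotene genes only through their Cxxc1-null values. In all 6 the value of replicate 2 was the higher of the Cxxc1-null pair. The X-linked spermatid gene Cypt1 had 1.94 and 3.61 FPKM in WT and 10.04 and 40.9 FPKM in Cxxc1-null cells and did not pass (adjusted p = 0.0981).

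Of 9 measured X-linked housekeeping genes, 1 (Psmd10) passed. Uba1, the ubiquitin-activating enzyme, had 0.384 and 0.494 FPKM in WT and 1.25 and 3.12 FPKM in Cxxc1-null cells (adjusted p = 0.135). The median of the 9 was 0.50 in each Cxxc1-null library. Of the 45 listed genes, 37 were tested. Uba1 and Ube2a were under 1 FPKM in both WT libraries and counted only through their Cxxc1-null values. Without these 2 the list median was 0.41. The 7 measured X ampliconic genes belong to multicopy families whose reads can be split between copies. They had a median of 0.54 in replicate 1 and 1.94 in replicate 2, and none passed. The list median of 1.41 was 1.03 without the 1 gene under 1 FPKM in both WT libraries. On the Y chromosome Eif2s3y, a translation initiation factor gene, rose from 1.41 and 2.03 FPKM to 4.72 and 7.06 FPKM (1.33 ± 0.24, adjusted p = 0.038). None of the 21 measured sex body and silencing factors passed, where 0.787% of all genes tested did. Among them Ube2a, itself X-linked, had 0.636 and 0.772 FPKM in WT and 1.40 and 5.65 FPKM in Cxxc1-null cells.

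The machinery of meiotic prophase showed no change that passed the test. This held for 7 break formation and axis genes, 21 strand exchange genes, 15 crossover factors, 12 synaptonemal complex genes, 15 cohesins and shugoshins and 31 genes of diplotene exit and the division kinases. Sycp1, the transverse filament of the synaptonemal complex, had 63.3 and 71.1 FPKM in WT and 45.4 and 50.7 FPKM in Cxxc1-null cells (adjusted p = 0.604). Psmc3ip, a cofactor of strand exchange, had 420 and 459 against 543 and 619 FPKM (adjusted p = 0.426). Cdc25c, a phosphatase that activates the division kinase, had 2.91 and 2.62 against 5.57 and 5.58 FPKM (adjusted p = 0.256). Such values do not show that the genes were unchanged. Of all genes tested only 0.787% passed, so lists of this size would hold few calls or none at that share. The median SE over diplotene genes was 0.27 on the log2 scale.

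Other chromatin genes also did not pass the test, apart from Phf13. None passed of 8 genes in the list of other H3K4 methyltransferases and related proteins. The same was true of 3 H3K4 demethylases, 10 DNA methylation and CpG-binding genes and 17 Polycomb subunits. Of all genes tested 0.787% passed, so these counts say little about the lists. Mll2, an H3K4 methyltransferase, had 5.05 and 5.54 FPKM in WT and 3.69 and 3.62 FPKM in Cxxc1-null cells (adjusted p = 0.431). The H3K4me3 reader Ing3 had 3.59 and 3.55 against 6.27 and 7.32 FPKM (adjusted p = 0.107).

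Among genes of germ-cell identity, 10 of 24 pachytene and diplotene markers had both Cxxc1-null libraries below both WT libraries and 3 had both above, and none passed the test. Over all diplotene genes 16.7% were separated downward and 29.0% upward, and 58.2% had a positive difference. The list's median was -0.22, with -0.23 in replicate 1 and -0.26 in replicate 2. Nme5 had 230 and 218 FPKM in WT and 85.6 and 107 FPKM in Cxxc1-null cells (adjusted p = 0.0683), and the POU-domain gene Pou5f2 had 230 and 211 against 133 and 112 FPKM (adjusted p = 0.194). The flagellar gene Rsph9, a radial spoke protein, had 293 and 309 against 163 and 202 FPKM (adjusted p = 0.197). Its list of 35 flagellum genes had a median of -0.11, with 13 positive, 8 separated upward and 12 downward, and none passed. Akap4 and Fscb of that list had positive differences of 1.21 and 0.88. Of 22 piRNA pathway genes, none passed, with 6 separated upward, a share near that of all diplotene genes, and 7 downward.

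Spermatid transcripts split the 2 Cxxc1-null libraries. The 22 late spermatid transcripts had a median difference of -0.40 in replicate 1 and 1.71 in replicate 2, and the 13 protamines, transition proteins and testis histones -1.15 and 0.27. Prm2, a protamine that replaces histones in sperm, was at 90.9 and 210 FPKM in WT and at 15.8 and 111 FPKM in Cxxc1-null replicates 1 and 2. Prm3 was at 20.0 and 39.0 FPKM in WT and at 9.73 and 95.5 FPKM in Cxxc1-null cells. H2afb1, Gapdhs, Prm1 and Tnp2 were the other 4 of the 6 germ-cell and spermatid genes with the widest gap between the Cxxc1-null libraries. Summed over the late spermatid list, the WT libraries had 5921 and 6988 FPKM, the Cxxc1-null libraries 4713 and 7478 FPKM and the WT meiosis II libraries 13568 and 19364 FPKM.

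Acrosome and sperm surface genes had positive median differences in both Cxxc1-null libraries. All 32 listed genes were measured, 24 had a positive difference, 12 were separated upward and 3 downward, and none passed. Over all diplotene genes 29.0% were separated upward, 16.7% downward and 58.2% positive. The list's median was 0.30 in replicate 1 and 0.65 in replicate 2. Spam1, the sperm hyaluronidase, had 1.66 and 0.943 FPKM in WT and 3.86 and 8.21 FPKM in Cxxc1-null cells (adjusted p = 0.0705). Spaca1, an acrosomal membrane protein, had 13.4 and 19.2 against 31.7 and 94.6 FPKM (adjusted p = 0.115).

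Housekeeping complexes had small positive differences. Of 36 proteasome subunits and assembly factors, 30 had a positive difference, 23 were separated upward and 2 downward, with a list median of 0.28 (0.32 and 0.28 in the 2 Cxxc1-null libraries), and only Psmd10 passed. Psmb1, a subunit of the catalytic core, had 298 and 292 FPKM in WT and 427 and 418 FPKM in Cxxc1-null cells (adjusted p = 0.319). Of 73 oxidative phosphorylation subunits, 59 had a positive difference, 38 were separated upward and 4 downward, with a median of 0.20, and none passed. Over all diplotene genes the median was 0.08, 58.2% had a positive difference, 29.0% were separated upward and 16.7% downward. The proteasome and oxidative phosphorylation medians were 0.23 and 0.17 after quantile normalization, and 0.15 and 0.07 after scaling to a common median. For the 80 cytoplasmic ribosomal proteins the 2 Cxxc1-null libraries differed in sign, at -0.09 and 0.31.

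**Figure D4:**
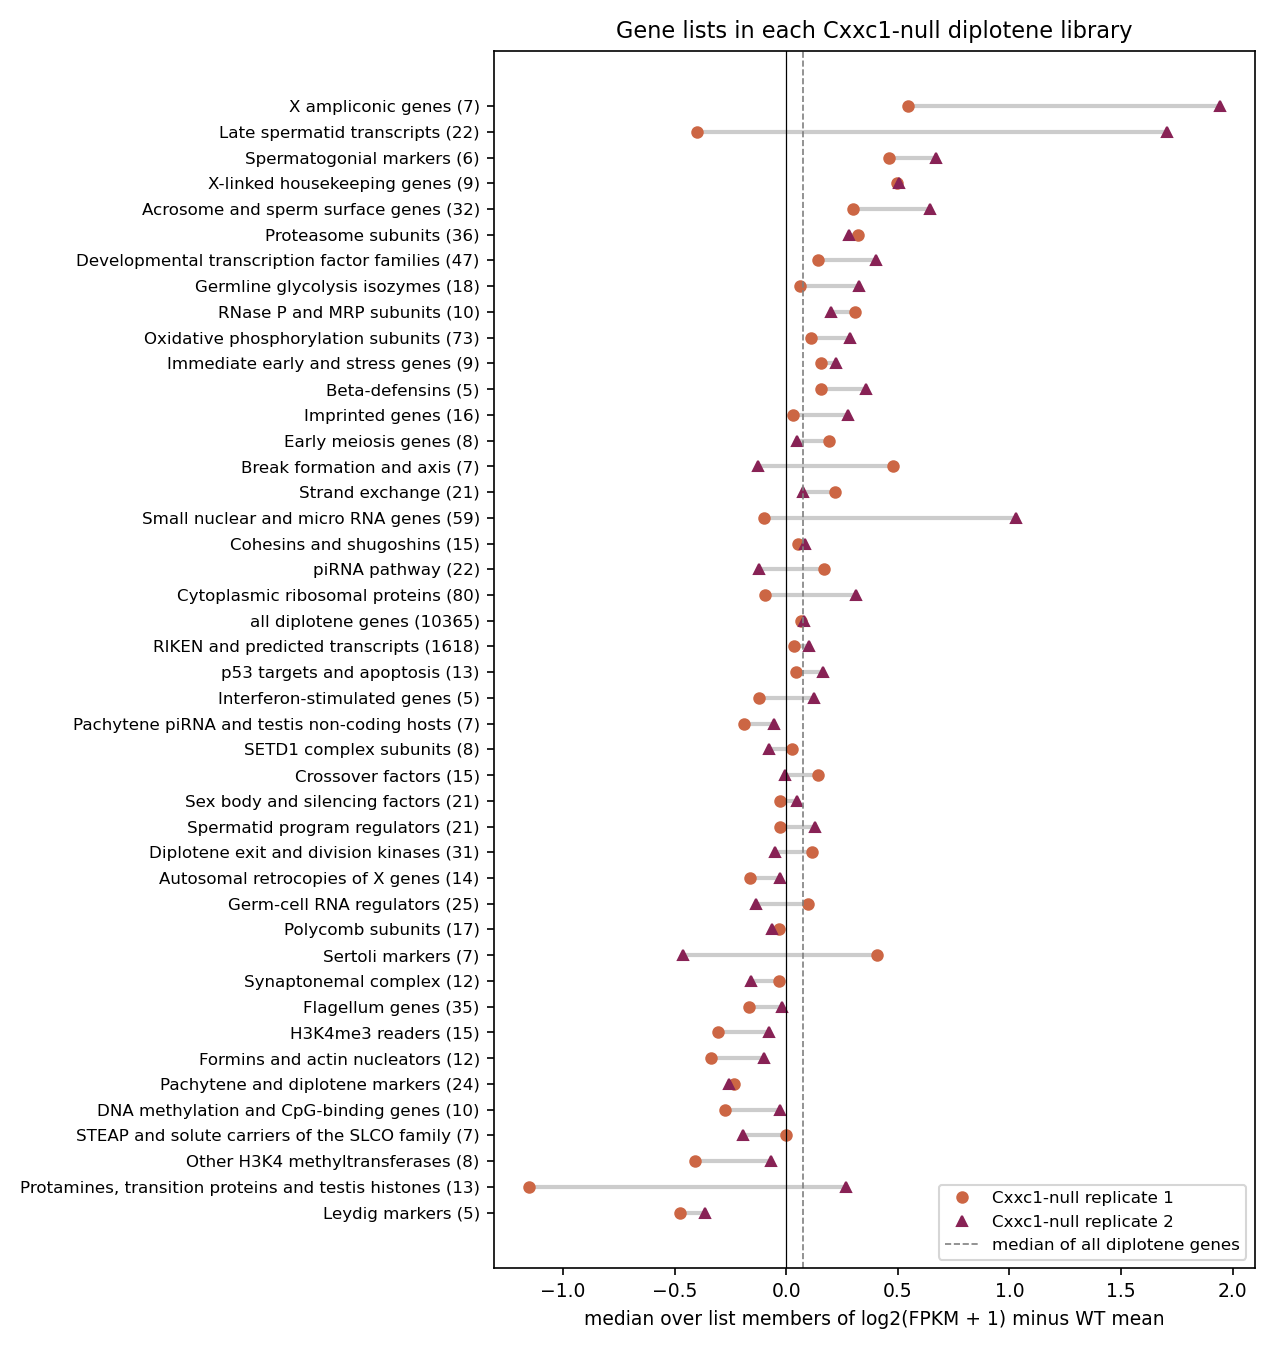
For each gene list with at least 5 measured members (number in brackets), the median log2(FPKM + 1) minus the WT mean is shown for Cxxc1-null replicate 1 (circle) and replicate 2 (triangle). Proteasome subunits lie at 0.32 and 0.28, whereas late spermatid transcripts lie at -0.40 and 1.71.

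Markers of somatic testis cells were few. Of 23 Sertoli, 15 Leydig and 31 peritubular, vascular and blood markers, 7, 5 and 4 reached the level of a diplotene gene. All 5 Leydig markers had a negative difference. Insl3, a Leydig cell hormone, had 34.7 and 65.6 FPKM in WT and 10.1 and 20.7 FPKM in Cxxc1-null cells (adjusted p = 0.437). The 7 Sertoli markers had a median of -0.07 with 3 positive, and went both ways. Dhh, a Sertoli cell ligand, had 2.63 and 2.66 against 6.12 and 7.25 FPKM (adjusted p = 0.0783), whereas Defb19 had a difference of -0.71 and Clu of -0.40. Of the 4 peritubular, vascular and blood markers 2 were positive. Cd14, a monocyte receptor, had 0.661 and 0.664 against 2.39 and 2.01 FPKM (adjusted p = 0.0554), whereas the smooth muscle genes Tagln and Mylk had differences of -0.18 and -0.13. No marker of these lists passed. The part of such cells in the results above was not tested. The heat shock gene Hspb1 had 9.47 and 13.2 FPKM in WT and 30.6 and 38.2 FPKM in Cxxc1-null cells (adjusted p = 0.0547).

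The 98 genes were followed in the pachytene and meiosis II libraries, which are separate samples. Of the 87 genes that rose in diplotene, 82 had a positive difference in pachytene and 83 in meiosis II, with median differences of 0.95 and 1.31 beside 1.51 in diplotene, and 23 and 68 passed the test there as higher. Of all genes tested, 0.34% were called higher in pachytene and 6.14% in meiosis II. All 11 genes that fell had a negative difference at both stages, with medians of -0.92 in pachytene and -1.61 in meiosis II. Of these, 1 (1700010B08Rik) passed in pachytene and 10 in meiosis II, the exception being 4933439C10Rik. Of all genes tested, 0.0154% were called lower in pachytene and 4.35% in meiosis II. The 3 stages shared 1 estimate of each gene's spread, so their calls are not independent. Over all diplotene genes the medians were 0.01 in pachytene and 0.02 in meiosis II.

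**Figure D5:**
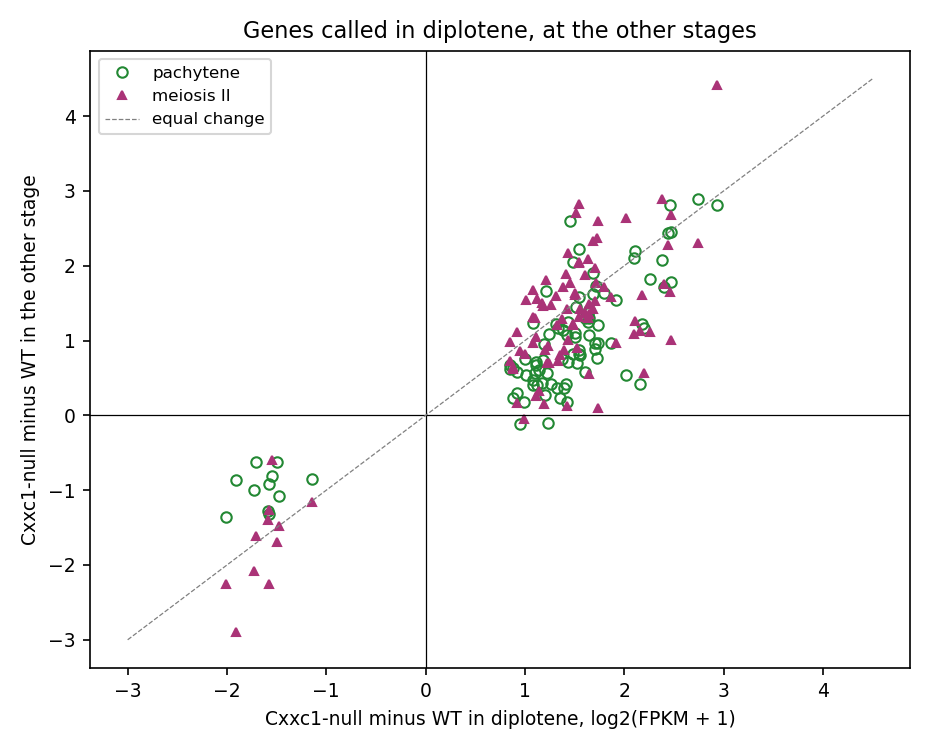
For the genes called in diplotene, apart from the 3 at 0 in both WT libraries, the Cxxc1-null minus WT difference in pachytene (open circles) and in meiosis II (triangles) is plotted against that in diplotene. All 11 genes that fell lie in the lower left quadrant, and the dashed line marks equal change.

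The difference of the genotype effect between stages was tested directly. Against pachytene it passed for 3 of all genes tested (0.0232%) and against meiosis II for 7 (0.054%). Among the diplotene genes it passed for the same 3 in both, Mir487b, Mir5113 and Scarna8. All 3 are short RNA loci whose calls rest on 2 libraries with values, so these tests give no support for a response particular to diplotene. No other diplotene gene passed. Against pachytene the next smallest p was that of BC024139, with an adjusted p of 1.0 and log2 differences of 0.96 in diplotene and -0.12 in pachytene.

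In the Cxxc1-null diplotene libraries Mir487b had 189 and 101 FPKM, Mir5113 85.2 and 73.1 FPKM and Scarna8, a guide RNA of Cajal bodies, 17.7 and 18.9 FPKM. All 3 were listed at 0 in every other RNA library. RefSeq gives these mature sequences for the microRNA genes, with the seed (bases 2 to 8) in capitals.
mmu-miR-487b-5p (chr12:109727347-109727367, GRCm38.p6, plus strand): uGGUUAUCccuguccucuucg
mmu-miR-5113 (chr15:80940049-80940071, GRCm38.p6, plus strand): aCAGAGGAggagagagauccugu
The seeds differ from each other. These libraries measured polyadenylated or internally primed RNA over the annotated locus, not mature microRNAs. Of 59 measured short RNA genes, 3 passed. Over all genes of the deposited data, 9, all but 4930449E18Rik short RNA genes, went from 0 in both WT libraries to at least 1 FPKM in both Cxxc1-null libraries. The reverse was seen for 4, among them Mir707, with 393 and 365 FPKM in WT and 0 in Cxxc1-null cells. Rn45s, the ribosomal RNA precursor that every cell makes, was listed at 0 in WT replicate 2 and at 5973 FPKM in replicate 1, so a value of 0 for such loci cannot be read as absence. With all short RNA genes left out of the fit, 160 diplotene genes passed, including the other 95.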

How the data were processed

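The authors deposited 1 table of FPKM values for 23235 genes in 12 RNA libraries. TopHat2 2.1.1, Cufflinks 2.2.1 and the mm9 build are named per the submitters' processing notes, without their roles. All 12 columns of values were mapped to samples by title, and 0 were left over. The 8 H3K4me3 ChIP libraries were not analysed here. FPKM are not counts, and low values gave no common step that would recover reads, so the depth is unknown.

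Values were transformed to log2(FPKM + 1), which understates changes of low genes. The fit took 12956 genes that reached 1 FPKM in 2 or more of 12 libraries. It used limma 3.58.1 (R 4.3.3) with a mean per group, a mean-variance trend, 6 residual degrees of freedom and Benjamini-Hochberg adjustment at 0.05. The contrast was Cxxc1-null minus WT in diplotene, and differences are given ± SE. The fit was also run on data simulated from WT stage means and its own estimates of spread. Such data hold no library that stands apart, so they cannot test that feature. Named genes were every gene that fell, the 25 largest rises of annotated genes, the 5 largest of RIKEN or predicted genes, list members that passed, up to 4 members per list with the smallest p, the 3 smallest p of each stage difference, and the 6 widest gaps between the Cxxc1-null libraries. The result of 1 gene that this rule names is not reported here. Genes and lists were chosen with earlier results of these data known. Chromosomes and gene order came from RefSeq (GRCm38.p6) by symbol, with a match for 10289 of 10365 genes. Alternatives covered pseudocount, filter, scaling, libraries fitted, weights, trend, replicate block and leaving out each library. Python 3.11.15 with pandas 2.3.3, numpy 2.4.6 and matplotlib 3.10.9 made the summaries and plots.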

Additional observations from a re-analysis of the deposited data

Results flagged for a closer look

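The Cxxc1-null effect in diplotene differed from that at another stage, by a limma test of the difference itself, for 3 diplotene genes. For Mir487b the adjusted p was 7.55e-06 against pachytene and 5.77e-06 against meiosis II, for Mir5113 5.24e-07 against both, and for Scarna8 3.11e-06 against both. All 3 were listed at 0 in the 10 other RNA libraries, so their spread was estimated from 2 libraries with values. A value of 0 at such short loci cannot be read as absence, and these p-values are not evidence of a stage difference.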

How the results depend on the processing

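The 98 genes called in diplotene became 168 with a pseudocount of 0.1, 195 when only diplotene genes were tested, 28 among genes with a mean above 5 FPKM, 37 with no expression filter, 43 after quantile normalization, 4 with the 4 diplotene libraries alone, 12 with pachytene and diplotene libraries, 225 with library weights, 11 without Cxxc1-null diplotene replicate 2 and WT pachytene replicate 2 together and 160 without short RNA genes. Scaling to a common median gave 66 and the fit without a trend 98. Leaving out 1 diplotene library gave 4 to 435. All of the 98 that an alternative tested kept their direction. These genes, which include the 44 named ones below, were chosen as called and did not overlap between genotypes. Their direction could therefore have changed only where the libraries were rescaled. The cause of the changes in number was not tested. Same-numbered libraries were not treated as pairs, since the labels give no link and not every stage deviated together: the correlation of their deviations from the group means was -0.07 in pachytene, 0.32 in diplotene and 0.11 in meiosis II. With the replicate number as a block 10 genes were called, 8 of them among the 98. Cxxc1 stayed lower and uncalled throughout. The number of diplotene genes with a stage difference against pachytene ranged from 3 to 5 when a library was left out. The median change of the X-linked genes, 0.34 over the 407 tested, was 1.05 with a pseudocount of 0.1. It was 1.14 over genes with a mean above 5 FPKM and 1.23 over diplotene genes only. Of those 111 X-linked diplotene genes, 41 were under 1 FPKM in both WT libraries. They counted as diplotene genes only through their Cxxc1-null values, so the 1.23 depends on that filter. Of the 123 X-linked genes with a mean of at least 5 FPKM, 64 were under 1 FPKM in both WT diplotene libraries. Over 44 named genes and their alternatives, 385 results kept their side of the threshold, 345 lost the call and 0 reversed. The unknown depth limits what can be said of genes near 1 FPKM.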
